A study of Mus musculus with 8 samples.

Results

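Mouse embryonic stem cells (ESCs) and neural stem cells (NSCs) were compared by RNA sequencing, over the genes with a mean level of at least 1 FPKM in either group. FPKM is the number of sequenced fragments of a gene scaled by transcript length and library size. Of 24354 listed genes, 12680 met this rule, of which 9816 reached 1 FPKM in both groups, 1367 in ESCs alone and 1497 in NSCs alone. The ESC libraries came from the E14 line, wild type by its label, kept undifferentiated in DMEM with 15% serum and LIF on mitomycin-treated C3H mouse embryonic fibroblasts as feeder cells. The NSC libraries came from cells of the OG2/ROSA26 double-transgenic background, which carry a GFP reporter under the distal enhancer of Oct4 and a ubiquitous lacZ transgene, both heterozygous. These cells were grown undifferentiated in DMEM/F12 with N2, EGF and FGF2 on 0.15% gelatin, with no feeder cells named. Each group held 2 libraries of a single line, so the spread is that between libraries and may be technical. Line, genotype, medium and substrate differed together with the cell type, and their parts cannot be told apart from it. In these bulk libraries, fewer cells of a type and less RNA per cell cannot be told apart either. The series also held extended pluripotent stem cells (EPSCs), derived from mouse embryos, wild type by label and at passage 15. Hybrid cells from the fusion of EPSCs with such NSCs, at passage 10, formed its other group. Both were grown on feeder cells in LCDM, a medium with LIF and small molecules. All 4 groups entered the limma fit, so its SE and p values draw on the spread within EPSCs and hybrid cells as well.

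ESCs represent the inner cell mass of the blastocyst. A network around Oct4 (gene Pou5f1), Sox2 and Nanog holds them undifferentiated, and LIF acting through STAT3 together with factors such as Esrrb, Klf4 and Tfcp2l1 keeps the naive state. NSCs in EGF and FGF2 resemble radial glia, the progenitors of the neural tube. They are marked by the intermediate filament Nestin, SoxB1 factors, Notch signalling and the fatty acid carrier Fabp7, and Sox2 is a factor of both cell types.

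Steps between low FPKM values, with fragments of 200 bases assumed, put the effective depth of the 4 libraries at about 28450000 to 32550000 fragments. Of the low values used, 69.6% to 75.7% lay within 0.1 of a whole fragment. At that depth a 2 kb transcript with 3 fragments reads 0.0461 to 0.0527 FPKM, which was taken as the floor and covers counting error alone. Across genes, log2(FPKM + 1) values correlated with r = 0.992 between the 2 ESC libraries and r = 0.995 between the 2 NSC libraries. Deposited FPKM summed to 617978 and 600674 in ESCs and to 415240 and 415412 in NSCs. Rescaling every library to a sum of 1000000 moved the median difference of all members from -0.012 to -0.54 on the log2 scale, so that genes with small differences in favour of ESCs changed sign under it. Differences in the text are ESC minus NSC on log2(FPKM + 1) of the deposited values unless another scale is named, and a ratio is one of mean FPKM.

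Most members differed between the cell types. By limma with Benjamini-Hochberg adjustment over all 13239 genes fitted, 10939 members passed an adjusted p threshold of 0.05, where 84.7% of the genes fitted did. Of these, 5421 were higher in ESCs and 5518 in NSCs, and 1741 members did not pass. Over all genes fitted, members or not, 42.8% were called higher in ESCs and 41.9% in NSCs. The share of called members that were higher in ESCs was 49.6%, and 32.9% after rescaling. Among the called members, 2781 were more than 2-fold higher in ESCs (21.0% of genes fitted) and 3130 more than 2-fold higher in NSCs (23.6%). A criterion on size alone, from the study's methods, was applied as a mean over 3 FPKM in the higher group with a ratio of means over 3. It was met by 1544 genes higher in ESCs (11.7% of genes fitted) and 2106 higher in NSCs (15.9%), of which 1522 and 2101 also passed limma. Of the genes meeting it, 42.3% were higher in ESCs, and 27.5% after rescaling. With a mean over 2 and a ratio over 2, limits that the study also used, 5977 genes passed in place of 3650. The 2 libraries of each group did not overlap in 12082 members, where 94.7% of the genes fitted did not. Of the called members, 1080 changed sign when libraries were rescaled and 235 when they were quantile normalized. As most genes fitted were called, the counts in the gene lists are given for their direction, not for how many were called. For members that reached 1 FPKM in ESCs alone (1367) or in NSCs alone (1497), the rule for members fixed that direction.

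**Figure D1:**
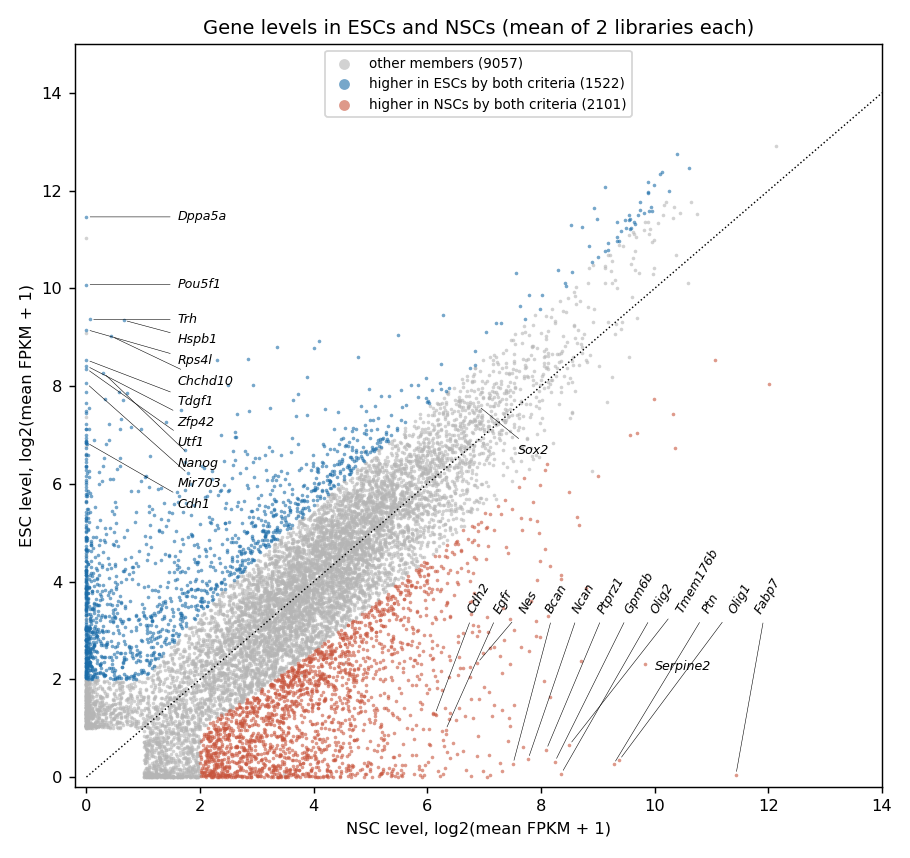
Mean level of each of the 12680 genes in NSCs (horizontal axis) and ESCs (vertical axis), both as log2(mean FPKM + 1), 1 point per gene, with genes passing limma and the fold criterion in blue (1522, higher in ESCs) and red (2101, higher in NSCs) and the dotted line marking equal levels. The named pluripotency genes lie along the vertical axis near 0 in NSCs, Fabp7 lies at the far right near 0 in ESCs, and Sox2 lies close to the line.

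The threshold of 1 FPKM divided genes of nearly equal level. Just inside it lay Gbp4, at 1.02 and 0.983 FPKM in the ESC libraries. Just outside it lay Ago3, at 1.02 and 0.981 FPKM in the NSC libraries. Between the 2 ESC libraries 29 members differed by more than 2-fold, and between the 2 NSC libraries 18 did. Among members with a mean of at least 10 FPKM in ESCs, 123 were listed at 0 in both NSC libraries. Among those with such a mean in NSCs, 14 were listed at 0 in both ESC libraries.

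All 13 core pluripotency factors and all 18 naive pluripotency factors listed were members, and every one was higher in ESCs by limma. In NSCs, 2 of the 13 and 3 of the 18 reached 1 FPKM, and for the others the rule for members fixed the direction. Their median differences were 6.93 and 6.06, where the median of all members was -0.012. Pou5f1, which encodes the POU factor Oct4, stood at 1106 and 1048 FPKM in the ESC libraries and was listed at 0 in both NSC libraries. Nanog, the homeodomain factor, stood at 310.2 and 307 FPKM in ESCs and 0.296 and 0.155 in NSCs. Both genes separated the groups without overlap, with differences of 10.07 (SE 0.14, adjusted p = 2.29e-09 by limma) and 7.98 (SE 0.066, adjusted p = 4.90e-10). Sox2, the HMG-box partner of Oct4, stood at 181 and 204 FPKM in ESCs and 116 and 119.6 in NSCs. It was the least different of the 13, at 0.70 (SE 0.067, adjusted p = 2.82e-05 by limma), or 0.15 after rescaling, where it was not called.

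The gene with the largest difference was Dppa5a, an RNA-binding protein of early embryos and pluripotent cells, at 2941 and 2698 FPKM in ESCs and listed at 0 in NSCs. Zfp42, the zinc-finger protein Rex1 used as a marker of the naive state, stood at 346 and 335 FPKM in ESCs and was likewise listed at 0 in NSCs. Tdgf1, the Nodal co-receptor Cripto, stood at 374 and 366 FPKM in ESCs, and Utf1, a chromatin-bound factor of undifferentiated cells, at 318 and 334. Both were listed at 0 in NSCs, so that 5 of the 10 genes with the largest differences in favour of ESCs, Pou5f1 among them, came from the pluripotency lists. Esrrb, an orphan nuclear receptor of the naive network, stood at 152 and 147 FPKM in ESCs against 0.254 and 0.364 in NSCs. Tfcp2l1, a grainyhead-family factor, stood at 52.98 and 52.7 FPKM in ESCs against 0.0503 and 0.0571 in NSCs. Klf4, a Krüppel-like factor, was detected in both cell types, at 52.9 and 53.1 FPKM in ESCs against 1.799 and 2.41 in NSCs, a ratio of 25.2. Its relatives Klf2 and Klf5 differed by 6.55 (SE 0.15) and 4.95 (SE 0.10). Gbx2, a homeobox gene downstream of LIF, had the smallest difference of the naive list, 1.69 (SE 0.23), and Prdm14, a repressor of FGF signalling and de novo methylation, the next, 2.64 (SE 0.11).

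The other 5 genes of the 10 stood outside the pluripotency lists. Trh, the thyrotropin-releasing hormone precursor, stood at 668 and 647 FPKM in ESCs against 0.05903 and 0.0295 in NSCs. Hspb1, a small heat shock protein, stood at 657 and 645 FPKM in ESCs against 0.496 and 0.652 in NSCs. Chchd10, a protein of the mitochondrial intermembrane space, stood at 517 and 519.5 FPKM in ESCs against 0.373 and 0.3296 in NSCs. Each was thus abundant in both ESC libraries and below 1 FPKM in both NSC libraries. Rps4l was listed at 580.4 and 559 FPKM in ESCs and 0 in NSCs, but it is a near copy of a ribosomal protein gene, and how the counting split reads between copies is uncertain. For Mir703, a microRNA locus of 109 bases, the SE of 2.34 takes in EPSC values of 0 and 469 FPKM. The gene was listed at 316 and 214 FPKM in ESCs and 0 in NSCs. Its adjusted p by limma rose from 0.01301 to between 0.0630 and 0.0682 when ESC library 1 or either NSC library was left out.

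The promoters of 7 genes with large differences, not the largest in each case, are printed here to show the sequence upstream of such genes, each as the 250 bases before an annotated start, 5′ to 3′ on the gene's strand, from RefSeq GRCm38.p6. Pou5f1, Nanog and Tnc have 2 annotated starts each there, and the matches, distances and CG counts hold for the start shown. In those of Zfp42, Chchd10, Acsbg1 and Tnc, capitals mark the octamer ATGCAAAT on either strand, the textbook recognition sequence of POU factors. In Nanog capitals mark its first 7 bases, ATGCAAA, on the reverse strand. In Pou5f1 and Fabp7, which hold neither, capitals mark CG dinucleotides. Zfp42, Chchd10, Nanog and Pou5f1 were higher in ESCs, and Fabp7, Acsbg1 (a long-chain acyl-CoA synthetase) and Tnc (the matrix protein tenascin C) in NSCs.
Pou5f1, chr17:35505782-35506031, plus strand: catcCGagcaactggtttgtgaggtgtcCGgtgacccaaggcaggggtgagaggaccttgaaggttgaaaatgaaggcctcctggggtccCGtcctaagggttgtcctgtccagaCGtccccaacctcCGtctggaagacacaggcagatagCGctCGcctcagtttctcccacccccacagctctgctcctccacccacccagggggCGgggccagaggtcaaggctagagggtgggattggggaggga
Nanog, chr6:122707239-122707488, plus strand: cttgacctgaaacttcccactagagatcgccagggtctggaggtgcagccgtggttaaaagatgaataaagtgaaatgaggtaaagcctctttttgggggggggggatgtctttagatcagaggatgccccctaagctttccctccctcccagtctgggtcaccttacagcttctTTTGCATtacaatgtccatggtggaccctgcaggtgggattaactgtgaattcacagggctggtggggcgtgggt
Zfp42, chr8:43307010-43307259, minus strand: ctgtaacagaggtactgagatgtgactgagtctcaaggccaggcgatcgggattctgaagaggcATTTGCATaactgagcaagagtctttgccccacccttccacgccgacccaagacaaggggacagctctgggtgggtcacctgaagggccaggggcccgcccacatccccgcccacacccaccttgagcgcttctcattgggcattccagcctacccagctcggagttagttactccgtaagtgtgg
Chchd10, chr10:75932880-75933129, plus strand: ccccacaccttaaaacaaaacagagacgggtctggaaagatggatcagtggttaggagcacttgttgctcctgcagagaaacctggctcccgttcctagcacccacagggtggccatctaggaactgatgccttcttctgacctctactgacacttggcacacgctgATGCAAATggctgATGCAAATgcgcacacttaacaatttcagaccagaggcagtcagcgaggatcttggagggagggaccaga
Fabp7, chr10:57784673-57784922, plus strand: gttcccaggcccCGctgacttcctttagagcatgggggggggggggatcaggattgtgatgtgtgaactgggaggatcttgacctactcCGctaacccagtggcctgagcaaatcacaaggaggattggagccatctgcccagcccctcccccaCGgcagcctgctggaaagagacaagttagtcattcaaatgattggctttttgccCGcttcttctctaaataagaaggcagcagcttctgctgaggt
Acsbg1, chr9:54661886-54662135, minus strand: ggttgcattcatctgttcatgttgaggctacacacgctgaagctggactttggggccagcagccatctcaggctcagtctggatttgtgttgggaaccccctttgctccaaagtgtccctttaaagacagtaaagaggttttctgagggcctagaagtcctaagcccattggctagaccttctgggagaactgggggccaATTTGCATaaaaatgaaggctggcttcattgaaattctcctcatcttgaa
Tnc, chr4:64047016-64047265, minus strand: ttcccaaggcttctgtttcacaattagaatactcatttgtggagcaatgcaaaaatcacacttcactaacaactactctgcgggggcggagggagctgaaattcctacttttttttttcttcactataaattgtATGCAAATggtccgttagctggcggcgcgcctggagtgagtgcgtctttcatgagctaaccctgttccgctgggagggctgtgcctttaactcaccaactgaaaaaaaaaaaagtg

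The octamer began 186 bases before the start of Zfp42, 83 and 70 bases before that of Chchd10, 50 bases before that of Acsbg1 and 116 bases before that of Tnc. The 7-base match in Nanog began 75 bases before its start. The Pou5f1 stretch held 8 CG dinucleotides and that of Fabp7 held 4. The octamer was thus present upstream of genes from both sides of the comparison. Over windows from 250 bases before to 50 bases after the start, it occurred in 1.98% of the promoters of genes higher in ESCs by both criteria and 1.77% of those higher in NSCs. The share was 1.32% over all members and 1.74% over all promoters of the table. The 7-base motif ATGCAAA, which every octamer contains, occurred in 4.82% and 3.63%, beside 3.40% of members' and 4.63% of all promoters. A promoter was found for 77.2% and 77.4% of the genes of the 2 sets, so these shares are incomplete and are given as a description, and a match is no evidence of binding.

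**Figure D2:**
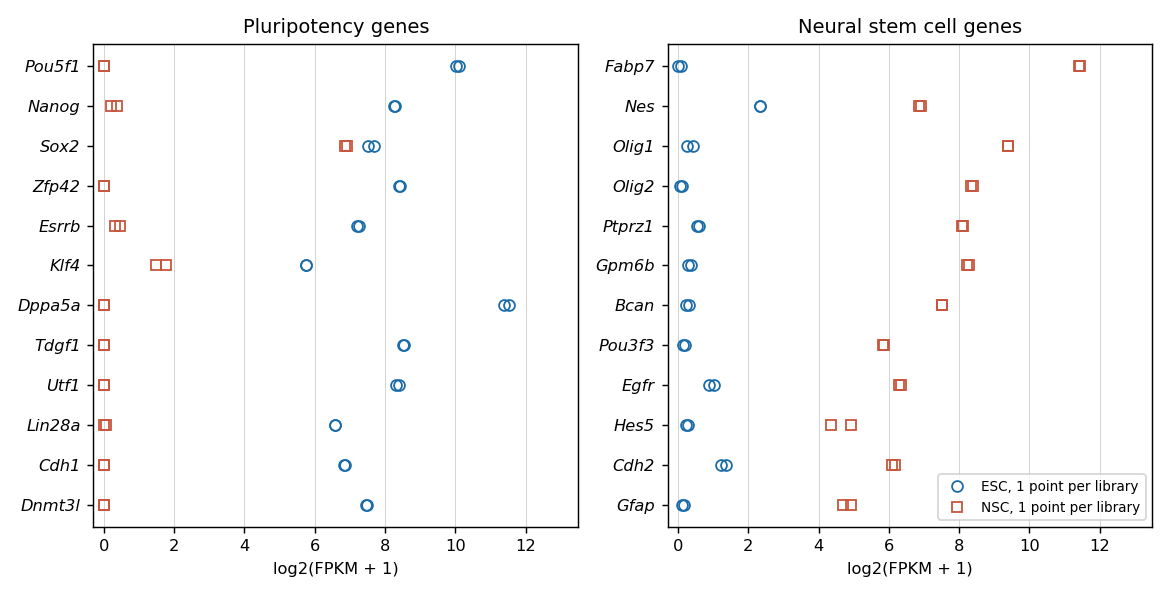
Level of 12 pluripotency-associated genes (left) and 12 neural stem cell genes (right) in each library as log2(FPKM + 1), with circles for the 2 ESC libraries and squares for the 2 NSC libraries. The groups do not overlap for any of the 24 genes, and Sox2 shows the smallest distance between them, at 0.70 on the log2 scale.

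Genes of the formative and primed states, which follow the naive state as the embryo implants, were mixed. Of 18 listed, 12 were members, and 7 were higher in ESCs, 3 in NSCs and 2 did not pass limma, with a median of 1.92. Nodal, the TGFβ-family ligand, stood at 69.8 and 71.5 FPKM in ESCs and was listed at 0 in NSCs. Otx2, a homeobox factor of the formative state, stood at 14.2 and 12.3 FPKM in ESCs against 2.46 and 3.07 in NSCs. Dnmt3b, a de novo DNA methyltransferase, stood at 44.2 and 43.7 FPKM in ESCs against 1.36 and 1.11 in NSCs. These 3 genes were each higher in both ESC libraries than in either NSC library. Fgf5, T, Mixl1 and Cer1, markers of the primed epiblast, primitive streak and anterior endoderm, were below 1 FPKM in every library of both groups. Eomes, a T-box factor of the streak and of trophectoderm, was higher in ESCs, with a difference of 1.91 (SE 0.17). Sox3, a SoxB1 factor, ran the other way, at 1.29 and 1.87 FPKM in ESCs against 40.1 and 37.2 in NSCs. Pou3f1 (Oct6), a class III POU factor, was also higher in NSCs, at 5.798 and 5.99 FPKM in ESCs against 9.104 and 10.6 in NSCs. Zic2, a zinc-finger factor, did not pass the test, with a difference of 0.037 (SE 0.21, adjusted p = 0.879 by limma).

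Of 32 genes of neural stem cells and radial glia, 31 were members, and 30 of them were higher in NSCs, with a median difference of -4.58. Fabp7, the brain fatty acid-binding protein of radial glia, stood at 2798 and 2709 FPKM in NSCs against 0 and 0.0569 in ESCs. Nes, which encodes Nestin, stood at 114 and 119.6 FPKM in NSCs against 4.06 and 4.03 in ESCs, a ratio of 28.9. Vim, another intermediate filament gene, was abundant in both cell types, at 1045 and 976 FPKM in NSCs against 218 and 208 in ESCs, a ratio of 4.75. No ESC library reached the level of an NSC library in any of these 3. Fabp7 had the largest difference in favour of NSCs of all members, -11.39 (SE 0.089, adjusted p = 4.37e-10 by limma). The neural SoxB1 gene Sox1 stood at 13.04 and 12.7 FPKM in NSCs against 0.858 and 0.709 in ESCs. Sox9, a gliogenic SoxE factor, stood at 30.2 and 28.8 FPKM in NSCs against 0.179 and 0.162 in ESCs. Pax6, a homeobox factor of dorsal progenitors, was present in ESCs as well, at 12.4 and 12.7 FPKM in NSCs against 3.67 and 4.02 in ESCs. Msi1, the RNA-binding protein Musashi, differed by -2.69 (SE 0.15) and the glutamate transporter Slc1a3 (GLAST) by -6.33 (SE 0.085). The exception was Prom1, which encodes the surface protein CD133 and was low in both, at 2.09 and 2.39 FPKM in ESCs against 0.689 and 0.711 in NSCs.

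Genes of glial progenitors were among the 10 with the largest differences in favour of NSCs. Olig1, a basic helix-loop-helix factor of the oligodendrocyte lineage, stood at 665 and 663 FPKM in NSCs against 0.341 and 0.203 in ESCs. Olig2, its neighbour on the chromosome and a factor of motor neuron progenitors as well, stood at 320.2 and 334 FPKM in NSCs against 0.0274 and 0.0746 in ESCs. Both were abundant in each NSC library and below 1 FPKM in each ESC library. Ptn, the growth factor pleiotrophin, stood at 643 and 595 FPKM in NSCs, with a difference of -9.02 (SE 0.19). Its receptor phosphatase Ptprz1 stood at 272 and 272 FPKM, with a difference of -7.53 (SE 0.075). Ligand and receptor were high in the same libraries and below 1 FPKM in both ESC libraries. The chondroitin sulphate proteoglycan Bcan (brevican) stood at 180.2 and 181 FPKM in NSCs and its relative Ncan (neurocan) at 217 and 218. Gpm6b, a membrane protein of the proteolipid family, stood at 296 and 308 FPKM in NSCs against 0.282 and 0.205 in ESCs. Serpine2, a secreted protease inhibitor, was the only one of the 10 that exceeded 1 FPKM in ESCs, at 900.1 and 909.95 FPKM in NSCs against 4.23 and 3.68 in ESCs. Tmem176b, a transmembrane protein, completed the 10 at 364 and 357 FPKM in NSCs against 0.592 and 0.563 in ESCs.

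The cell types differed in which members of the POU and nuclear factor I families they carried. Pou5f1 was present in ESCs alone, as described. The class III POU genes of neural progenitors were high in NSCs, Pou3f2 at 14.6 and 15.9 FPKM, Pou3f3 at 56.005 and 56.9 and Pou3f4 at 45.8 and 38.1. All 3 were below 1 FPKM in both ESC libraries, so that Pou3f1 was the class III gene found in both cell types. Of the nuclear factor I genes, which drive the start of gliogenesis, Nfia stood at 22.3 and 25.6 FPKM in NSCs against 0.0409 and 0.0335 in ESCs. Nfib stood at 54.1 and 61.4 FPKM in NSCs against 1.92 and 1.84 in ESCs, and Nfix at 59.5 and 62.98 FPKM in NSCs. These 6 genes passed limma with differences between -3.94 for Pou3f2 and -5.71 for Nfix.

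Genes that pattern the neural tube along its length were present only in part. Of 29 listed, 12 were members, 10 higher in NSCs and 2, Gbx2 and Nkx6-2, in ESCs. The forebrain genes Emx1, Gsx2 and Nkx2-1 were listed at 0 in both NSC libraries. Emx2, Dlx1 and Dlx2, also of the forebrain, were above 0 but below 1 FPKM there, with Dlx1 at 0.462 and 0.444. Lhx2, a LIM homeobox gene that the forebrain also uses, stood at 8.45 and 8.78 FPKM in NSCs against 0.161 and 0.191 in ESCs. En2, of the midbrain-hindbrain region, stood at 18.4 and 17.4 FPKM in NSCs against 1.19 and 1.48 in ESCs, and the Iroquois gene Irx5 at 13.6 and 12.8 FPKM in NSCs against 0.333 and 0.333 in ESCs. Pax3, of the dorsal neural tube, stood at 5.92 and 5.34 FPKM in NSCs and Pax7 at 3.77 and 3.57. Of 39 Hox genes, which mark hindbrain and spinal cord levels, 8 were members, 7 of them higher in NSCs and all 7 from the A cluster. Hoxa5 was the highest, at 17.2 and 18.5 FPKM in NSCs against 0.0364 and 0.178 in ESCs, and Hoxa3 stood at 12.1 and 14.05 FPKM in NSCs against 0.0654 and 0.0143 in ESCs. Hoxb9 was the one higher in ESCs, at 1.07 and 1.38 FPKM there and listed at 0 in NSCs. Hoxb2, Hoxb3, Hoxb4 and Hoxc4 were listed at 0 in both NSC libraries.

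Markers of differentiated neural cells did not separate the groups uniformly. Of 16 neuronal markers, 9 were members, 5 higher in ESCs and 4 in NSCs, with a median of 0.38 that became -0.065 after rescaling, where the RNA-binding protein gene Elavl3 changed sign. Map2, a microtubule-associated protein, stood at 173 and 191 FPKM in NSCs against 1.84 and 1.72 in ESCs. Tubb3, a tubulin used as a neuronal marker, was higher in ESCs, at 78.9 and 78.7 FPKM in ESCs against 3.68 and 2.75 in NSCs. Stmn2, a regulator of microtubules, was too, at 93.2 and 90.3 FPKM in ESCs against 0.493 and 0.531 in NSCs. Dcx, Rbfox3, Neurod1, Snap25 and Syt1, of immature and mature neurons, were below 1 FPKM in all 4 libraries. Of 10 astrocyte markers, 9 were members, and 2 were higher in ESCs, 6 in NSCs and 1 did not pass. Gfap, the astrocyte filament protein, stood at 29.2 and 24.8 FPKM in NSCs against 0.0852 and 0.1196 in ESCs. Aldoc, an aldolase of astrocytes, stood at 339.7 and 313 FPKM in NSCs against 15.98 and 15.2 in ESCs. Slc1a2, a glutamate transporter, stood at 24.7 and 23.6 FPKM in NSCs and was listed at 0 in ESCs. Glul, glutamine synthetase, was near equal at 89.7 and 91.3 FPKM in NSCs against 79.9 and 80.8 in ESCs and did not pass (adjusted p = 0.567 by limma). It varied within the EPSCs (78.8 and 55.4 FPKM) and was called with only the ESC and NSC libraries fitted. Aldh1l1, a folate enzyme of astrocytes, was higher in ESCs, at 7.28 and 7.597 FPKM in ESCs against 3.05 and 2.22 in NSCs. Of 11 oligodendrocyte lineage markers, 6 were members, 4 higher in NSCs, 1 in ESCs and 1 not called. Myrf, a regulator of myelin genes, had the largest difference of the list and was higher in ESCs, at 14.2 and 13.4 FPKM in ESCs against 0.461 and 0.397 in NSCs. Cnp, a myelin-associated enzyme, was the most abundant, at 45.4 and 45.4 FPKM in NSCs against 5.11 and 5.62 in ESCs. Cspg4 (NG2), of oligodendrocyte precursors, stood at 6.91 and 6.52 FPKM in NSCs against 0.0669 and 0.0989 in ESCs. Sox10 and the myelin genes Mog, Mag and Mbp were below 1 FPKM in every library.

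As the ESCs grew on feeder cells, fibroblast markers were examined beside these results. Of 20 fibroblast markers, 11 were members, 6 higher in ESCs, 4 in NSCs and 1 not called. The 20 summed to 174 and 179 FPKM in ESCs and to 71.7 and 66.5 in NSCs. Most of the ESC sum was Fn1, fibronectin, which other cells also make, at 140.4 and 142 FPKM. Col1a1, a collagen I chain that fibroblasts make in abundance, stood at 1.86 and 2.06 FPKM in ESCs against 0.226 and 0.192 in NSCs, and 11 of the 20 markers were below 1 FPKM on average in ESCs. Tagln, a smooth muscle and fibroblast actin-binding protein gene, stood at 9.38 and 10.3 FPKM in ESCs against 0.328 and 0.503 in NSCs, the largest difference to the ESC side in the list, and the surface protein gene Thy1 at 4.402 and 5.01 FPKM in ESCs against 0.752 and 0.931 in NSCs. Lum and Fap were listed at 0 in both NSC libraries and in 1 of the ESC libraries. Col6a1, a collagen VI chain, ran the other way, at 17.4 and 15.5 FPKM in NSCs against 0.929 and 1.103 in ESCs. The part of feeder RNA in the ESC values was not tested.

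Markers of other early lineages were present in part in ESCs. Of 13 trophectoderm markers, 6 were members and all 6 were higher in ESCs. None of the 13 reached 1 FPKM in NSCs, so the rule for members fixed this direction. The 13 summed to 72.5 and 73.98 FPKM in ESCs and to 0.891 and 0.918 in NSCs. Tfap2c, an AP-2 factor that pluripotent cells also use, led the 6 at 35.6 and 38.5 FPKM in ESCs, with the keratin gene Krt8 at 11.3 and 10.4. Of the factors that define that lineage, Cdx2, Elf5 and Gata3 were below 1 FPKM in both ESC libraries, whereas Eomes stood at 2.55 and 3.18 FPKM in ESCs against 0.0405 and 0.01001 in NSCs and Ascl2 at 1.66 and 1.43 FPKM in ESCs. Of 13 primitive endoderm markers, 7 were members, 5 higher in ESCs and 2 in NSCs, with Gata4 at 1.78 and 1.54 FPKM in ESCs while Gata6 and Sox17 were below 1. The laminin genes of that list ran in opposite directions, Lama1 at 8.01 and 7.702 FPKM in ESCs against 0.5498 and 0.541 in NSCs and Lamb1 at 25.4 and 25.1 FPKM in NSCs against 11.9 and 12.6 in ESCs. Genes of the two-cell-like state that rare ESCs enter summed to 1.81 and 1.79 FPKM in ESCs, and none was a member. Of 10 endothelial and blood markers, Pecam1, which ESCs also express, and the lysosomal protein gene Cd68 were members, at 25.02 and 27.04 and at 26.8 and 25.6 FPKM in ESCs.

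Genes of LIF signalling, which ESCs need and their medium supplied, were divided. All 12 listed were members, 5 higher in ESCs and 7 in NSCs. Their median was -0.35, or -0.90 after rescaling and -0.17 after quantile normalization. The receptor gene Lifr stood at 9.296 and 9.37 FPKM in ESCs against 11.5 and 12.7 in NSCs, and its partner Il6st (gp130) at 21.7 and 20.7 FPKM in ESCs against 27.5 and 27.6 in NSCs. Stat3, the transcription factor of the pathway, stood at 18.95 and 18.9 FPKM in ESCs against 73.6 and 75.7 in NSCs, a ratio of 3.95 in favour of NSCs. The kinase gene Jak2 was 13.7-fold higher in NSCs. Both receptor genes and Stat3 were thus lower in each ESC library than in each NSC library. Pim3, a kinase gene induced by STAT3, ran the other way, at 95.97 and 95.8 FPKM in ESCs against 7.88 and 7.87 in NSCs. Pim1, of the same family, stood at 35.2 and 35.3 FPKM in ESCs against 3.09 and 2.89 in NSCs, and Bcl3, another target, differed by 3.97 (SE 0.17). Socs3, the STAT3-induced feedback inhibitor, was higher in NSCs, at 11.5 and 9.898 FPKM in NSCs against 7.65 and 7.74 in ESCs. Neither Socs3 nor Lifr was called after quantile normalization.

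Genes of the FGF and EGF pathways leaned to NSCs, which were grown with both factors. Of 28 listed, 24 were members, and 6 were higher in ESCs, 15 in NSCs and 3 did not pass limma, with a median of -1.20 beside -0.012 for all members. Among the ligands, Fgf4, which ESCs secrete, stood at 86.01 and 85.9 FPKM in ESCs and was listed at 0 in NSCs. Fgf1 stood at 19.8 and 21.5 FPKM in NSCs against 1.04 and 1.29 in ESCs. Among the receptors, Egfr stood at 77.5 and 80.1 FPKM in NSCs against 1.04 and 0.84002 in ESCs, and Fgfr3 at 37.1 and 34.9 FPKM in NSCs against 0.665 and 0.735 in ESCs. Fgfr1 was present in both cell types, 2.301-fold higher in NSCs, whereas Erbb3 was on the ESC side, at 4.37 and 4.398 FPKM in ESCs against 0.0184 and 0.0181 in NSCs. Fgfr2 did not pass, and Fgfr4 was higher in ESCs, so that the FGF receptors differed by member. Of the feedback inhibitors of ERK, Spry1, Spry2, Spred1 and Dusp6 were higher in NSCs, with differences from -3.14 for Spry1 to -1.42 for Spred1. Dusp4, another ERK phosphatase gene, was higher in ESCs, at 12.04 and 11.8 FPKM in ESCs against 4.86 and 5.58 in NSCs. Spry4 and Etv5, a transcription factor induced by FGF, did not pass the test, at 0.24 (SE 0.23) and 0.33 (SE 0.14). Both passed with only the ESC and NSC libraries fitted. Fos, an immediate early gene downstream of ERK, stood at 175 and 174 FPKM in NSCs against 8.26 and 8.53 in ESCs, and Egr1 at 270.3 and 268 FPKM in NSCs against 24.5 and 24.5 in ESCs.

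Notch signalling keeps radial glia from turning into neurons, and its genes leaned to NSCs. Of 22 genes, 20 were members, and 4 were higher in ESCs, 13 in NSCs and 3 did not pass limma, with a median of -1.04. The ligand gene Dll1 stood at 28.2 and 26.2 FPKM in NSCs against 1.85 and 1.93 in ESCs, and the receptor gene Notch1 at 63.5 and 60.6 FPKM in NSCs against 8.96 and 8.94 in ESCs. Lfng, a glycosyltransferase that modifies Notch, stood at 119.8 and 119 FPKM in NSCs against 6.47 and 7.33 in ESCs. Ligand, receptor and modifier were each higher in both NSC libraries than in either ESC library. The target Hes5 differed between the NSC libraries, at 29.5 and 19.5 FPKM in NSCs against 0.169 and 0.214 in ESCs. Hes1, another target, was nearly level, at 23.9 and 25.4 FPKM in NSCs against 20.9 and 20.5 in ESCs, a difference of -0.24 (SE 0.056, adjusted p = 0.004396 by limma). Rbpj, the DNA-binding partner of Notch, ran the other way, at 77.9 and 76.4 FPKM in ESCs against 13.9 and 15.2 in NSCs, as did the receptor gene Notch4, at 5.75 and 6.33 FPKM in ESCs against 0.164 and 0.1295 in NSCs. The coactivator genes of the Mastermind family differed by member, Maml1 by 0.69 (SE 0.079), Maml2 by -4.46 (SE 0.13) and Maml3 by -1.02 (SE 0.064). Maml1 was not called after rescaling.

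Wnt and TGFβ-family genes were divided by member. Of 15 Wnt pathway members, 7 were higher in each group. Tcf7l1, the repressor known as Tcf3 in ESCs, stood at 55.9 and 57.97 FPKM in ESCs against 4.303 and 3.88 in NSCs. Sfrp1, a secreted inhibitor, stood at 33.6 and 33.4 FPKM in ESCs against 0.126 and 0.141 in NSCs. The feedback genes Axin2, Rnf43 and Lgr5 were higher in NSCs, Axin2 at 23.1 and 23.9 FPKM in NSCs against 4.06 and 4.02 in ESCs and Rnf43 at 18.1 and 19.4 FPKM in NSCs against 0.0449 and 0.0654 in ESCs. Notum, a secreted feedback inhibitor, was higher in ESCs, at 12.6 and 13.3 FPKM in ESCs against 0.212 and 0.191 in NSCs, as was the effector gene Tcf7, at 13.2 and 13.7 FPKM in ESCs against 2.11 and 2.25 in NSCs. Of 20 Nodal and BMP pathway genes, 11 were higher in ESCs, 8 in NSCs and 1 did not pass. The ligand Nodal, its co-receptor Tdgf1 and the inhibitors Lefty1 and Lefty2 were higher in ESCs, Lefty1 at 27.2 and 28.2 FPKM in ESCs against 0.0249 and 0 in NSCs. The transducer gene Smad3 was higher in NSCs, at 13.8 and 12.9 FPKM in NSCs against 1.68 and 1.51 in ESCs. The activin receptor genes were divided, Acvr1b and Acvr2a higher in NSCs (-0.59 and -0.65) and Acvr2b in ESCs (1.01), and Smad2 did not pass. Bmp4, a BMP ligand, stood at 75.5 and 76.1 FPKM in ESCs against 0.0195 and 0.0388 in NSCs. The receptor gene Bmpr1a stood at 42.2 and 44.6 FPKM in NSCs against 11.04 and 11.1 in ESCs, and Bmpr1b at 7.84 and 7.69 FPKM in NSCs against 0.485 and 0.3303 in ESCs. Nodal and Bmp4 were thus on the ESC side, and Bmp7 and both BMP receptor genes on the NSC side. The BMP target Id3 was higher in NSCs, at 202 and 199.8 FPKM in NSCs against 32.3 and 32.5 in ESCs. Id1 was higher in ESCs, at 32.7 and 31.6 FPKM in ESCs against 20.6 and 22.9 in NSCs. Its difference of 0.54 was 0.011 after rescaling, where it was not called.

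The cell types carried different cadherins. Cdh1, E-cadherin of epithelia and ESC colonies, stood at 113 and 115 FPKM in ESCs and was listed at 0 in NSCs. Cdh2, N-cadherin of neuroepithelium, stood at 67.5 and 70.7 FPKM in NSCs against 1.31 and 1.55 in ESCs. The groups did not overlap for either gene, with differences of 6.84 (SE 0.074) and -4.85 (SE 0.21). Of 18 adhesion and junction members, 10 were higher in ESCs, 7 in NSCs and 1 did not pass. The ESC side held Epcam, an epithelial adhesion molecule, at 68.9 and 69.6 FPKM in ESCs against 0.0564 and 0 in NSCs, and the claudin gene Cldn4 of tight junctions at 89.2 and 89.7 FPKM in ESCs and 0 in NSCs. The NSC side held Cdh4, Cdh6, Ncam1 and Nrcam, with Ncam1, the neural cell adhesion molecule, at 61.9 and 62.2 FPKM in NSCs against 10.2 and 9.76 in ESCs. Of the regulators of epithelial and mesenchymal state, 7 of 9 members were higher in ESCs. Zeb1, a repressor of E-cadherin, stood at 104 and 110.4 FPKM in NSCs against 3.83 and 3.68 in ESCs, and its relative Zeb2 at 12.8 and 13.3 FPKM in NSCs against 0.238 and 0.217 in ESCs. Another such repressor, Snai1, was higher in ESCs, at 6.42 and 7.35 FPKM in ESCs against 0.126 and 0.0503 in NSCs. The epithelial splicing regulator Esrp1 stood at 7.55 and 7.41 FPKM in ESCs and was listed at 0 in NSCs.

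Splicing and RNA-binding factors were divided too, with 6 of 14 splicing regulators higher in ESCs, 7 in NSCs and 1 not called. Ptbp1, which represses neural exons, stood at 349 and 352 FPKM in ESCs against 151 and 150.1 in NSCs. Its neural relative Ptbp2 stood at 14.8 and 15.99 FPKM in ESCs against 26.9 and 28.8 in NSCs. Mbnl1, a regulator of exons that change as cells differentiate, stood at 22.02 and 25.4 FPKM in NSCs against 1.21 and 1.37 in ESCs, and Nova1, of neuronal exons, at 26.5 and 27.6 FPKM in NSCs against 1.84 and 1.53 in ESCs. Ptbp1 was thus the higher of the pair in both cell types, at a lower level in NSCs. Qk, an RNA-binding protein of glia, was the most abundant of the list in NSCs, at 239 and 262 FPKM in NSCs against 60.01 and 64.3 in ESCs. Of 12 genes of the Lin28 and let-7 axis, 8 were higher in ESCs, 3 in NSCs and 1 did not pass, with Dicer1 reversing after rescaling. Lin28a, which blocks let-7 maturation, stood at 94.4 and 95.3 FPKM in ESCs against 0.0107 and 0.0317 in NSCs. Igf2bp1, an RNA-binding protein of embryonic cells, stood at 59.9 and 60.3 FPKM in ESCs and was listed at 0 in NSCs. Hmga2, a let-7 target, was higher in NSCs, at 11.7 and 14.5 FPKM in NSCs against 6.92 and 7.22 in ESCs, as was Zcchc11, a uridylyltransferase, at 11.4 and 12.6 FPKM in NSCs against 5.32 and 5.41 in ESCs. Hmga1, a relative of Hmga2, was higher in ESCs, at 142 and 152 FPKM in ESCs against 27.8 and 29.7 in NSCs.

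Of 12 DNA methylation enzymes and their cofactors, 7 were higher in ESCs and 5 in NSCs. Dnmt3l, the cofactor of de novo methylation, stood at 179 and 176 FPKM in ESCs and was listed at 0 in NSCs. Zfp57, which guards methylation at imprints, stood at 257 and 260.3 FPKM in ESCs against 4.68 and 4.56 in NSCs. Dnmt3a stood at 10.9 and 10.5 FPKM in ESCs against 16.01 and 16.6 in NSCs, a difference of -0.56 (SE 0.18, adjusted p = 0.0177 by limma, and 0.0634 to 0.0911 when any 1 of the 4 libraries was left out). The demethylase genes ran in opposite directions, Tet1 at 27.3 and 28.1 FPKM in ESCs against 3.26 and 3.61 in NSCs and Tet3 at 0.912 and 1.04 FPKM in ESCs against 17.7 and 19.03 in NSCs. Dnmt1, the maintenance enzyme, differed by -0.29 (SE 0.055) and its partner Uhrf1 by 0.56 (SE 0.061), which became 0.016 after rescaling, where Uhrf1 was not called. Of 19 germline genes, 9 were members and all 9 were higher in ESCs. None of the 19 reached 1 FPKM in NSCs, so the rule for members fixed this direction. Sycp3, a synaptonemal complex protein, stood at 54.4 and 56.5 FPKM in ESCs against 0 and 0.0761 in NSCs, and Tex19.1, which restrains retrotransposons, at 14.2 and 13.4 FPKM in ESCs against 0 and 0 in NSCs.

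Chromatin complexes differed by paralog. Of 26 Polycomb genes, 14 were higher in ESCs, 9 in NSCs and 3 did not pass. Among the chromodomain genes, Cbx7 stood at 86.6 and 86.5 FPKM in ESCs against 2.17 and 2.499 in NSCs, and Cbx8 at 0.432 and 0.5801 FPKM in ESCs against 11.6 and 10.1 in NSCs. Cbx7 was thus the higher in ESCs, and Cbx8 in NSCs. Among the ring-finger partners, Pcgf2 stood at 46.5 and 50.01 FPKM in ESCs against 5.47 and 5.204 in NSCs and Bmi1 (Pcgf4) at 4.19 and 4.15 FPKM in ESCs against 39.1 and 42.3 in NSCs. The PRC2 accessory genes Mtf2 and Jarid2 were higher in ESCs, with differences of 3.11 (SE 0.088) and 2.60 (SE 0.13). E130012A19Rik (Epop), which binds PRC2 as well, had the highest mean level of the list in ESCs, at 178 and 182 FPKM in ESCs against 6.26 and 6.28 in NSCs. The methyltransferase gene Ezh2 did not pass, at -0.061 (SE 0.082, adjusted p = 0.502 by limma). It was called after rescaling and after quantile normalization. Among 19 BAF remodelling subunits, 7 were higher in ESCs, 10 in NSCs and 2 did not pass, with Smarcb1 and Arid1a reversing after rescaling. Smarca2, the alternative ATPase, stood at 0.269 and 0.474 FPKM in ESCs against 22.3 and 21.02 in NSCs, and Smarcc2 at 5.92 and 5.93 FPKM in ESCs against 52.1 and 51.4 in NSCs. Dpf3, a subunit of differentiating cells, stood at 0.206 and 0.1004 FPKM in ESCs against 12.7 and 12.9 in NSCs. Smarca4, the other ATPase, was also higher in NSCs, at 66.6 and 68.99 FPKM in NSCs against 36.98 and 37.5 in ESCs. The counterparts of the other two, Smarcc1 and Dpf2, did not pass, at -0.0098 (SE 0.11) and -0.0015 (SE 0.048). Both were called after rescaling, and Dpf2 after quantile normalization as well. Smarcd2 was higher in ESCs, at 26.3 and 26.1 FPKM in ESCs against 8.09 and 8.201 in NSCs, and so was the actin-related subunit gene Actl6a, at 129.8 and 129 FPKM in ESCs against 45.7 and 48.3 in NSCs.

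Imprinted genes, expressed from a single parental copy, were divided. Of 30 listed, 24 were members, 12 higher in ESCs, 11 in NSCs and 1 not called, with a median of 0.37 that became -0.13 after rescaling. Meg3, a maternally expressed long RNA, stood at 63.9 and 65.4 FPKM in ESCs, and Rian, of the same locus, at 57.7 and 57.5. Both were listed at 0 in NSCs, as was the placental growth regulator Phlda2, at 79.1 and 73.7 FPKM in ESCs. The paternally expressed Mest stood at 39.3 and 38.1 FPKM in ESCs against 374 and 413 in NSCs. Nnat, a proteolipid of the developing brain, stood at 10.9 and 10.9 FPKM in ESCs against 110.2 and 102 in NSCs, and Nap1l5 at 0.306 and 0.412 FPKM in ESCs against 44.2 and 44.5 in NSCs. Igf2 and H19, neighbours under a shared control region, ran in opposite directions, Igf2 at 3.98 and 3.79 FPKM in ESCs against 0.151 and 0.208 in NSCs and H19 at 1.596 and 1.17 FPKM in ESCs against 3.62 and 3.31 in NSCs. Gnas, a G protein subunit gene with imprinted transcripts, was the most abundant of the list, at 605 and 607 FPKM in NSCs against 286 and 292 in ESCs. Both lines carried Y-linked transcripts, with Eif2s3y at 43.9 and 44.3 FPKM in ESCs against 25.9 and 27.1 in NSCs. Kdm5d, a Y-linked histone demethylase, was near 0 in the ESCs, at 0.0175 and 0.0192 FPKM in ESCs against 9.65 and 9.81 in NSCs. On the X chromosome the helicase gene Ddx3x stood at 239 and 236 FPKM in ESCs against 133 and 147 in NSCs. Tsix, antisense to Xist, stood at 10.04 and 10.9 FPKM in ESCs and was listed at 0 in NSCs, and since no strand setting is given for the counting, it cannot be told apart from its partner.

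Sterol and fatty acid synthesis genes were nearly all higher in NSCs. All 23 cholesterol synthesis genes were members, 21 were higher in NSCs, none in ESCs and 2 did not pass, with a median of -1.52. Hmgcs1, an enzyme of the first steps, stood at 517 and 501 FPKM in NSCs against 69.8 and 70.5 in ESCs, the largest difference of the list at -2.84 (SE 0.048). Dhcr7, of the last step, stood at 80.5 and 79.1 FPKM in NSCs against 11.4 and 10.3 in ESCs, and the regulator Srebf2 at 115 and 114 FPKM in NSCs against 50.04 and 49.8 in ESCs. Genes of early and of late steps were thus both higher in NSCs. The sterol isomerase Ebp was among the genes that did not pass, with a difference of 0.12 (SE 0.071). Of 18 fatty acid genes, 16 were higher in NSCs and 2 in ESCs. The desaturase gene Scd2 was the most abundant, at 1274 and 1295 FPKM in NSCs against 172 and 171 in ESCs. Fads2, of polyunsaturated fatty acid synthesis, stood at 246 and 239 FPKM in NSCs against 15.6 and 14.9 in ESCs. Acsbg1, whose promoter is printed above, stood at 159 and 158 FPKM in NSCs against 0.0833 and 0.104 in ESCs, and Fabp5, another fatty acid carrier, at 357 and 296 FPKM in NSCs against 16.3 and 16.9 in ESCs. The exceptions were Acacb, an acetyl-CoA carboxylase at the mitochondrion, at 1.92 and 1.98 FPKM in ESCs against 0.1101 and 0.0959 in NSCs, and Elovl7, an elongase, at 1.595 and 1.55 FPKM in ESCs against 0.543 and 0.733 in NSCs. Serum was named for the ESC medium and not for that of the NSCs, and its part in these values was not tested.

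**Figure D3:**
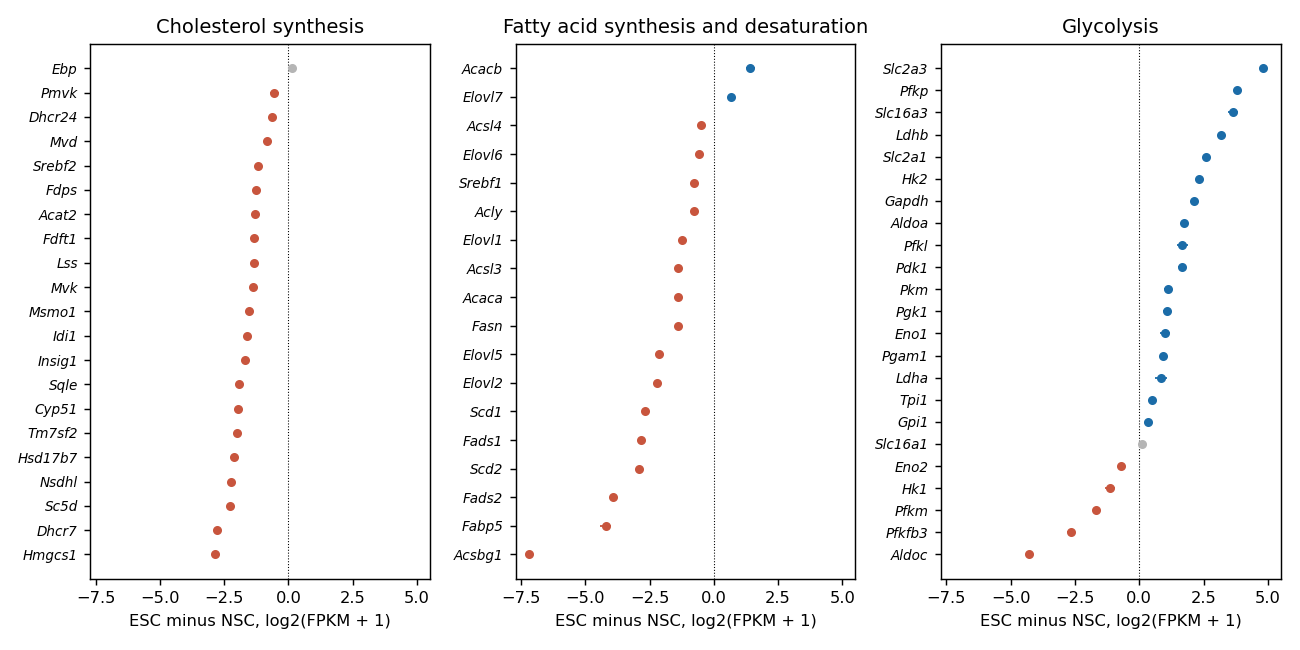
Difference between ESCs and NSCs for genes of 3 metabolic lists, 1 point per gene on the log2(FPKM + 1) scale with bars of 1 SE (mostly within the point), blue where higher in ESCs, red where higher in NSCs and grey where limma did not call it. The called cholesterol synthesis genes drawn all lie left of 0, while 17 called glycolysis genes lie right of 0 and 5 left.

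Glycolysis leaned to ESCs. All 23 genes were members, and 17 were higher in ESCs, 5 in NSCs and 1 did not pass limma, with a median of 1.07, or 0.52 after rescaling. Rescaling reversed Gpi1 and Tpi1, and quantile normalization reversed Gpi1, Tpi1, Eno1, Pkm and Ldha. The glucose transporter gene Slc2a3 (GLUT3) stood at 490.4 and 475 FPKM in ESCs against 16.3 and 15.9 in NSCs, and Slc2a1 (GLUT1) at 223 and 219 FPKM in ESCs against 36.9 and 33.9 in NSCs. Hexokinase differed by paralog, Hk2 at 49.4 and 48.8 FPKM in ESCs against 9.27 and 8.92 in NSCs and Hk1 at 16.8 and 17.8 FPKM in ESCs against 41.5 and 36.5 in NSCs. Phosphofructokinase did as well, Pfkp at 83.2 and 82.4 FPKM in ESCs against 5.08 and 4.81 in NSCs and Pfkm at 14.7 and 15.6 FPKM in ESCs against 52.2 and 48.9 in NSCs. Aldolase followed the same pattern, Aldoa being 3.33-fold higher in ESCs and Aldoc 20.9-fold higher in NSCs. Gapdh was the most abundant, at 4539 and 4332 FPKM in ESCs against 1072 and 959 in NSCs, a ratio of 4.37.

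Threonine, serine, proline and one-carbon metabolism also leaned to ESCs, with 15 of 19 genes higher there, 1 in NSCs and 3 not called, although Psph and Mthfd1 reversed after rescaling. Tdh, threonine dehydrogenase, on which mouse ESCs depend, stood at 236 and 235 FPKM in ESCs and was listed at 0 in NSCs. Shmt2, the mitochondrial serine hydroxymethyltransferase, stood at 193 and 188 FPKM in ESCs against 94.1 and 101 in NSCs, and the glycine decarboxylase gene Gldc at 77.99 and 76.2 FPKM in ESCs against 32.8 and 32.5 in NSCs. Mthfd2, a mitochondrial folate enzyme, was 4.17-fold higher in ESCs. Mat2a, which makes S-adenosylmethionine, was the most abundant, at 281 and 268 FPKM in ESCs against 105 and 115 in NSCs. Phgdh and Psat1, the first enzymes of serine synthesis, did not pass, with differences of -0.13 (SE 0.058) and 0.16 (SE 0.10). Both were called after rescaling, after quantile normalization and with only the ESC and NSC libraries fitted. Psat1 changed sign under rescaling and under quantile normalization.

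A list of electron transport genes, weighted to subunits with alternative forms, was examined next. Of 21 members, 13 were higher in ESCs, 4 in NSCs and 4 did not pass, and the median of 0.38 turned to -0.17 after rescaling and -0.22 after quantile normalization. Of the 13, Cox7a2, Cox6a1, Ndufa4, Uqcrc1 and Atp5a1 reversed after rescaling. Ndufa4l2, a paralog of a complex IV subunit, stood at 81.2 and 81.7 FPKM in ESCs against 0.0456 and 0.415 in NSCs. Cox6b2, another complex IV form, stood at 75.9 and 71.5 FPKM in ESCs against 5.39 and 5.603 in NSCs, and Cox7a1 at 27.1 and 23.5 FPKM in ESCs against 0.812 and 1.58 in NSCs. Each of these 3 was at least 10-fold higher in ESCs by its means. The core subunit genes Ndufs1 of complex I and Sdhb of complex II did not pass, with differences of -0.012 (SE 0.051) and -0.038 (SE 0.052). Both were called after rescaling and after quantile normalization. Cycs, the somatic cytochrome c gene, was higher in NSCs, at 30.8 and 31.9 FPKM in NSCs against 18.7 and 18.5 in ESCs. Atp5b, of the ATP synthase, was higher in ESCs as deposited, with a difference of 0.59. Its difference was 0.038 after rescaling, where it was not called, and -0.70 after quantile normalization.

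Of 11 genes of mitochondrial fusion and fission, 4 were higher in ESCs, 6 in NSCs and 1 did not pass, and Dnm1l and Mief1 reversed after rescaling. The fusion gene Mfn2 stood at 9.81 and 9.84 FPKM in ESCs against 21.7 and 21.4 in NSCs. The fission gene Dnm1l (Drp1) stood at 54.4 and 53.7 FPKM in ESCs against 40.5 and 43.1 in NSCs. Mtfr1, a regulator of fission, had the largest difference to the ESC side, at 55.01 and 56.8 FPKM in ESCs against 9.77 and 10.4 in NSCs, and Fis1, a fission adaptor, was the most abundant, at 121 and 117 FPKM in NSCs against 97.5 and 96.7 in ESCs. The ratio of Mfn2 to Dnm1l, which the study used as an index of how far cells have differentiated, was 0.180 and 0.183 in the ESC libraries (mean 0.182 ± 0.00214, SD, n = 2). In the NSC libraries it was 0.537 and 0.497 (mean 0.517 ± 0.0284, SD, n = 2). The groups did not overlap, and the difference of -0.335 gave p = 0.333 in a two-sided exact permutation test, the smallest that 2 libraries against 2 allow. Being a ratio within a library, it does not move when libraries are rescaled to a common sum.

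Genes of G1 control were divided. Of 28 genes of G1 cyclins, CDK inhibitors and p53 targets, 10 were higher in ESCs, 15 in NSCs and 3 did not pass. Ccnd1, cyclin D1, stood at 399 and 412 FPKM in NSCs against 34.5 and 35.1 in ESCs, and Ccnd2 at 152 and 165 FPKM in NSCs against 1.59 and 1.56 in ESCs. Ccnd3 ran the other way, at 145 and 143 FPKM in ESCs against 37.3 and 39.7 in NSCs, as did Ccne1, cyclin E1, at 106 and 110.5 FPKM in ESCs against 17.5 and 16.8 in NSCs. The D-type cyclins thus differed by member. The CDK inhibitor gene Cdkn2c stood at 76.9 and 78.4 FPKM in NSCs against 0.598 and 0.491 in ESCs and Cdkn1a (p21) at 104 and 114 FPKM in NSCs against 26.7 and 27.4 in ESCs, whereas Cdkn1c, an imprinted member, was higher in ESCs, at 14.1 and 14.8 FPKM in ESCs against 0.735 and 1.02 in NSCs. The retinoblastoma gene Rb1 stood at 17.6 and 19.4 FPKM in NSCs against 3.67 and 3.82 in ESCs. Mycn, a MYC-family gene of early embryos, stood at 40.99 and 42.6 FPKM in ESCs against 1.18 and 1.12 in NSCs, and Myc at 21.5 and 23.6 FPKM in ESCs against 34.5 and 38.2 in NSCs. Of 24 replication and mitosis genes, 20 were higher in ESCs, 3 in NSCs and 1 did not pass, and Mcm4, Pcna, Cdc45, Gins2 and Cdk1 reversed after rescaling. Cdt1, which loads the replicative helicase, had the largest difference of these at 2.60 (SE 0.076). Mki67, Top2a and Aurkb were the 3 higher in NSCs, with Mki67, the proliferation marker, at 100.5 and 104 FPKM in NSCs against 42.5 and 41.9 in ESCs. Of 14 telomerase and shelterin genes, 10 were higher in ESCs, 1 in NSCs and 3 did not pass, with Terf2ip reversing after rescaling. Terf1, which binds telomeric repeats, stood at 65.8 and 66.8 FPKM in ESCs against 8.87 and 9.41 in NSCs, and Nhp2, of the telomerase RNA-binding complex, at 285 and 275 FPKM in ESCs against 93.6 and 100.3 in NSCs.

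Ribosomal protein genes took a larger share of the transcriptome in ESCs. They held 29.0% and 28.6% of summed FPKM in the ESC libraries and 13.6% and 13.1% in the NSC libraries. Of 86 genes, 85 were members, 83 were higher in ESCs and 2 in NSCs, with a median of 1.59, or 1.04 after rescaling and 0.49 after quantile normalization. Rescaling reversed 2 of the called genes, Rplp0 and Rps27l, and quantile normalization 11. Rps12 had the highest level, at 6996 and 6851 FPKM in ESCs against 1463 and 1224 in NSCs. Rpl29 was higher in NSCs, at 291 and 301 FPKM in NSCs against 119 and 108 in ESCs, and so was Rps3a1, at 682 and 672 FPKM in NSCs against 569.5 and 580.1 in ESCs. Ribosomal protein genes have many near-identical processed copies, so that the level of a single one is uncertain.

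Among innate immune genes, most of an antiviral list was higher in ESCs and most of an antigen presentation list in NSCs. Of 26 antiviral interferon genes, 23 were members, and 21 were higher in ESCs, 1 in NSCs and 1 did not pass, with a median of 2.56. Oas2, a sensor of double-stranded RNA, stood at 28.02 and 28.5 FPKM in ESCs and was listed at 0 in NSCs. Bst2, a membrane tether of viruses, stood at 379.5 and 356 FPKM in ESCs against 3.75 and 4.07 in NSCs. Usp18, a protease that removes ISG15, stood at 21.9 and 20.8 FPKM in ESCs against 0.267 and 0.333 in NSCs, and Isg15 itself at 19.9 and 18.96 FPKM in ESCs against 0.2501 and 0.574 in NSCs. Ifit2 was the exception, at 0.451 and 0.511 FPKM in ESCs against 9.35 and 9.75 in NSCs. Ifitm2 had the highest level of the list in ESCs, at 546 and 554 FPKM in ESCs against 126 and 131 in NSCs. The membrane-associated Ifitm1 differed by 7.51 (SE 0.32), while Ifitm3 differed by 0.25 and by -0.30 after rescaling, and how reads were split between these paralogs is uncertain. Of 14 MHC class I antigen presentation members, 9 were higher in NSCs, 3 in ESCs and 2 did not pass. B2m, the invariant chain, stood at 109 and 114 FPKM in NSCs against 48.04 and 49.4 in ESCs, and the peptide transporter gene Tap2 at 5.54 and 4.897 FPKM in NSCs against 0.321 and 0.496 in ESCs. Erap1, a peptidase that trims the peptides, had the largest difference to the NSC side, at 7.52 and 7.92 FPKM in NSCs against 0.879 and 0.925 in ESCs. H2-D1, a class I heavy chain gene, was higher in ESCs, at 14.01 and 12.9 FPKM in ESCs against 4.396 and 4.38 in NSCs, with a difference of 1.42 that was 1.00 after rescaling, and how reads were split between class I paralogs is uncertain. The chaperone gene Calr was also on the ESC side at 0.38 and reversed to -0.18 after rescaling.

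Of 18 heat shock and stress response members, 13 were higher in ESCs, 3 in NSCs and 2 did not pass, with Hspa5 and Atf4 reversing after rescaling. Asns, asparagine synthetase and a target of the amino acid response, stood at 246 and 241 FPKM in ESCs against 29.5 and 30.8 in NSCs. Trib3, a pseudokinase of the same response, stood at 56.9 and 56.3 FPKM in ESCs against 0.624 and 0.827 in NSCs, and Chac1, which degrades glutathione, at 42.9 and 40.2 FPKM in ESCs against 1.56 and 2.11 in NSCs. Hsp90aa1, the inducible HSP90 gene, was the most abundant, at 957 and 909 FPKM in ESCs against 212 and 226 in NSCs. The 3 genes higher in NSCs were the immediate early genes Fos, Jun and Egr1.

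Guidance and channel genes were mostly higher in NSCs. Of 25 axon guidance members, 19 were higher in NSCs and 6 in ESCs, of which Epha4 reversed after rescaling, with a median of -1.83. The semaphorin gene Sema6a stood at 35.8 and 37.7 FPKM in NSCs against 0.553 and 0.564 in ESCs, and Ntn1, netrin 1, had the highest level, at 85.6 and 86.1 FPKM in NSCs against 23.8 and 23.1 in ESCs. The ephrin receptor gene Epha2 was on the ESC side, at 48.2 and 49.4 FPKM in ESCs against 2.02 and 2.07 in NSCs. Of 19 ion channel and transmitter receptor members, 13 were higher in NSCs and 6 in ESCs. Kcnj10, the glial potassium channel Kir4.1, stood at 153 and 153 FPKM in NSCs against 0.225 and 0.213 in ESCs. Among AMPA receptor genes, Gria3 was the highest in NSCs, at 19.8 and 19.9 FPKM in NSCs against 0.3305 and 0.229 in ESCs. The NMDA receptor gene Grin1 was higher in ESCs, at 12.6 and 11.02 FPKM in ESCs against 1.02 and 1.21 in NSCs. Of 15 collagen and laminin chains, 6 were higher in ESCs, 8 in NSCs and 1 did not pass. Col18a1, of basement membranes, stood at 65.3 and 67.9 FPKM in ESCs against 8.46 and 8.69 in NSCs, and Col11a1, a fibrillar chain, differed by -3.61 (SE 0.082). Of 67 replication-dependent histone genes, whose mRNAs mostly lack the poly-A tail used to make the libraries, 19 were members, 9 higher in ESCs, 7 in NSCs and 3 not called. Hist1h1c, a linker histone, had the largest difference of these at -2.83 (SE 0.14), and Hist1h3c the largest to the ESC side, at 1.75 (SE 0.21).

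**Figure D4:**
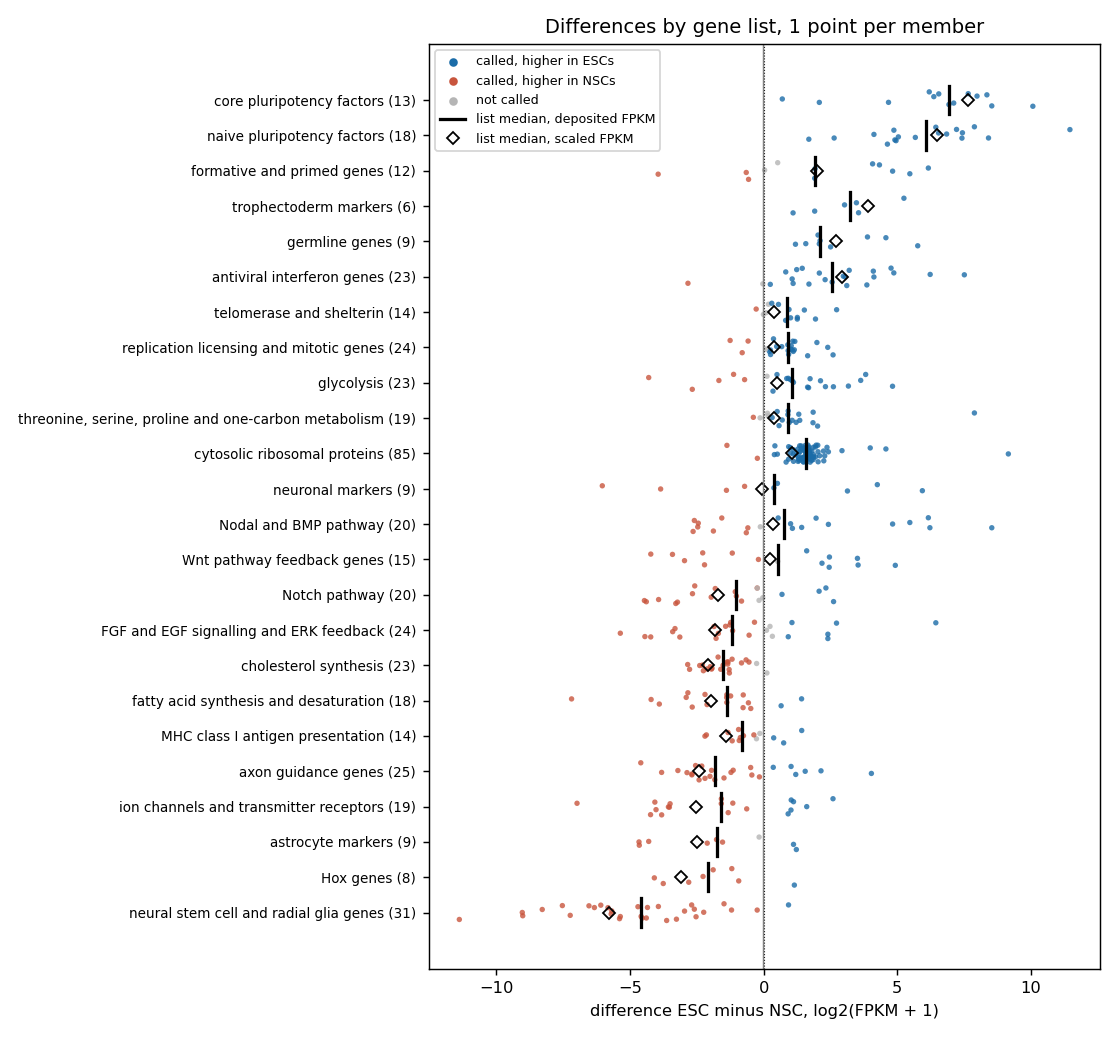
Difference between ESCs and NSCs on the log2(FPKM + 1) scale for every member of 24 gene lists (number of members in brackets), 1 point per gene, blue where called higher in ESCs, red where called higher in NSCs and grey where not called, with a bar at the list's median and a diamond at its median after rescaling each library to a sum of 1000000. The pluripotency lists lie at the right and the neural stem cell list at the left, and the neuronal markers are the list shown whose diamond falls on the other side of 0 from its bar.

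Genes higher in NSCs were longer. Genes higher in NSCs by both criteria spanned a median of 40.0 kb in RefSeq, those higher in ESCs 16.8 kb and all members 23.2 kb. More than 100 kb was spanned by 27.3% of the NSC genes, 8.11% of the ESC genes and 13.2% of all members. By chromosome, the median difference was highest on chromosome 8, at 0.37 over 686 members. Of these, 59.2% had a difference above 0, where 49.6% of all members with a position did. Each ESC library alone gave 0.35 against the NSC mean. Chromosomes 7 and 17 followed at 0.19 and 0.15, and the lowest medians were those of chromosomes X (-0.30), 1 (-0.28), Y and 18 (both -0.26). That of Y rests on 5 members. Genes of a chromosome are not independent replicates, so no test was made. Against the EPSCs, the ESCs gave a chromosome 8 median of 0.28, and EPSCs against NSCs gave -0.023. These 3 comparisons share their libraries, and ESCs and EPSCs differed in line and medium too.

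**Figure D5:**
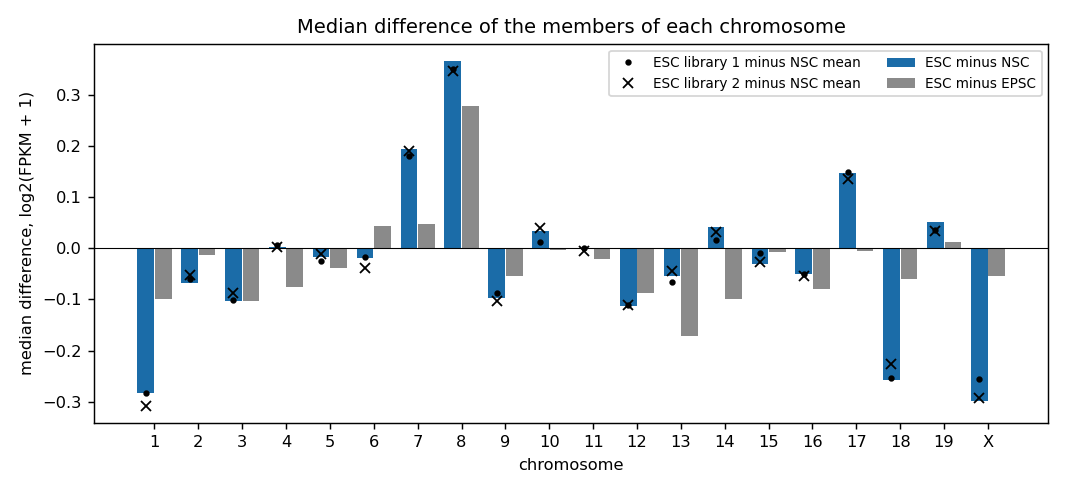
Median difference on the log2(FPKM + 1) scale over the members on each chromosome, with blue bars for ESC minus NSC, grey bars for ESC minus EPSC, and a dot and a cross for each ESC library alone minus the NSC mean. Chromosome 8 has the highest bar of both kinds, at 0.37 and 0.28, and each ESC library alone lies close to the blue bar.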

How the data were processed

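RNA was sequenced from poly-A selected, strand-marked TruSeq libraries described as independent samples. According to the submitters' processing notes, reads were aligned with STAR 2.7.9a to mm10 and the authors computed FPKM with Cufflinks and Cuffnorm 2.2.1. The deposited FPKM per gene were used as they stand. Annotation, strand setting and normalization option are not given in the sources used here. FPKM are not counts, and depth was derived from whole-fragment steps of long single-transcript genes (GENCODE M21). As the normalization option is unknown, this is a depth as scaled in the FPKM, which may differ from that sequenced.

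Log2(FPKM + 1) values of all 8 libraries of the 4 groups were fitted together by limma 3.58.1 (R 4.3.3) for genes with a mean of at least 1 FPKM in any group, with Benjamini-Hochberg adjustment and no covariate, as the study gave a fold criterion only. The smallest exact permutation p is 0.333 for 2 libraries against 2. Members and gene lists were chosen with earlier results of these data known. Named by rule are, in each direction, the 10 genes of largest non-overlapping difference passing both criteria, and for each list its largest differences and most abundant member (122 genes), beside members whose role is described. Single values of a few list members are not reported here, though lists count them. Gbp4, Ago3 and the promoters printed were chosen after their values were seen. Symbols were matched to RefSeq GRCm38 for 24235 of 24354 genes. On simulated data for the comparison of ESCs with NSCs (13239 genes, 200 changed), 94 of 100 2-fold and 100 of 100 4-fold changes were called. So were 19 unchanged genes, 8.92% of calls, a larger share than the adjusted p threshold of 0.05 sets. All groups shared their means there apart from the 200 genes, and noise was independent. In the data 84.7% of the genes fitted were called, so these rates need not carry over. Alternatives covered pseudocount, filter, rescaling, quantile normalization, groups fitted, replicate block and leaving out each library. Tables were handled in Python 3.11.15 with pandas 2.3.3 and numpy 2.4.6, tests in scipy 1.17.1 and plots in matplotlib 3.10.9.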

Additional observations from a re-analysis of the deposited data

How the results depend on the processing

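The number of genes called stayed within 1.5 times its value of 10939 under every alternative run, between 9796 with a minimum mean of 3 FPKM and 11463 with only the ESC and NSC libraries fitted, and lay between 10226 and 10322 when 1 library was left out. Calls over 2-fold, 5911 as reported, lay between 5894 and 5909 without 1 library. Rescaling to a common sum lowered the share of called genes higher in ESCs from 49.6% to 32.9%, and that of genes passing the fold criterion from 42.3% to 27.5%, by its construction, since ESC libraries had the larger sums. Without 1 library the first share lay between 49.1% and 49.9% and the second between 42.03% and 42.56%. A fold criterion of a mean over 2 and a ratio over 2 passed 5977 genes in place of 3650, and leaving out 1 library gave 3632 to 3670. The difference of the Mfn2 to Dnm1l ratio was -0.268 after quantile normalization, the cause was not tested, and between -0.355 and -0.315 without 1 library.

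The same replicate numbers in both groups pair no named source, and deviations of same-numbered libraries correlated at -0.113 over 12680 genes. With the number as a replicate block, 10977 genes were called, 10881 of them shared with the fit without it, and 5915 over 2-fold. Of 314 members named in the text, 299 were called and none of these lost its call under the block, while Etv5 gained one (adjusted p = 0.0417 by limma). With the numbers crossed, chosen after seeing the data, 11005 were called and 5914 over 2-fold.

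Among the 122 genes named by rule, rescaling reversed Calr (-0.18), Cdk4 (-0.47) and Pcna (-0.34), and quantile normalization Calr (-0.19), Cdk4 (-0.45), Pcna (-0.26), Pot1b (0.092) and Atp5b (-0.70). Of these, Cdk4 was not called as deposited. Among 44 list medians, rescaling reversed those of neuronal markers (-0.065), imprinted genes (-0.13), electron transport switch genes (-0.17) and sex-linked check genes (-0.45), quantile normalization that of electron transport switch genes (-0.22), and a minimum mean of 3 FPKM that of replication-dependent histones (-0.33), where fewer genes entered. Most other list medians changed in size, not in sign, under rescaling, quantile normalization and a pseudocount of 0.1. Why single genes reversed was not tested. Among the 299 called members named in the text, rescaling reversed 28 and quantile normalization 20. Rescaling ended the call of 21 of the 299, and quantile normalization that of 17, reversed genes among them. Under rescaling 12 uncalled members gained a call, namely Cdk4, Dpf2, Ebp, Ezh2, Fgfr2, Glul, Ndufs1, Phgdh, Psat1, Sdhb, Smad2 and Smarcc1. Quantile normalization gave a call to 9 of these, all but Glul, Smad2 and Smarcc1. With only the ESC and NSC libraries fitted, Etv5, Glul, Phgdh, Psat1 and Spry4 gained one. Of the 299, 19 lost their call without at least 1 library, with adjusted p by limma between 0.0505 and 0.157 in place of 0.00594 or more. Without ESC library 1 these were Aldh18a1, Ctnnb1, Dnmt3a, Id1, Ifitm3, Mief1, Mir703, Ndufa4, Pot1b, Rps3a1, Terf2ip and Tpi1 (0.0506 to 0.113), and without ESC library 2 Aldh18a1, Ctnnb1, Dnmt3a, Gbp4, Hspa5, Pot1b, Smarcb1 and Terf2ip (0.0551 to 0.0875). Without NSC library 1 they were Ctnnb1, Dnmt3a, Gbp4, Hspa5, Id1, Mir703, Rps27l and Smarcb1 (0.0543 to 0.157), and without NSC library 2 Aldh18a1, Dnmt3a, Elavl3, Ifitm3, Ldha, Lifr, Mir703, Pot1b, Smarcb1, Terf2ip and Tpi1 (0.0505 to 0.128). None of the 299 that could be fitted without 1 library changed direction there. Levels below about 0.05 FPKM are near the counting floor.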

Other observations

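Small RNA genes, singled out after their values were seen, varied between libraries of 1 group more than other members. Of 42 small RNA members, with a median span of 119 bases, 19 were listed at 0 in 1 library and above 10 FPKM in the other library of the same group, whereas 1 of the other 12638 members was, Scarna8, itself a small nuclear RNA gene. Snord57, a small nucleolar RNA, was listed at 4160.1 and 0 FPKM in the ESC libraries. The median SE of their differences was 1.45 on the log2 scale, beside 0.0874 for other members. By limma with Benjamini-Hochberg adjustment, 10 of the 42 were higher in ESCs, none in NSCs and 32 (76.2%) did not pass, where 5411 of the other members were higher in ESCs, 5518 in NSCs and 1709 (13.52%) did not pass.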
